A study of Mus musculus with 4 samples.

Results

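The genes examined here are 34 genes of serine synthesis, the folate cycle, the methionine cycle, threonine catabolism with glycine cleavage, and the amino acid response that the transcription factor Atf4 directs. They were chosen by symbol as known members of these pathways, with earlier results of these data known. Each was matched to 1 Ensembl identifier, so that all 34 were found among the 37310 genes of the deposited table. Testing was limited to the 14510 genes whose normalized value averaged 10 or more across the libraries, and all 34 were among them. The data are mRNA-seq of mouse embryonic stem cells (mESCs) of the JM8 line, from the C57BL6/N strain. There are 2 wild-type and 2 Bmal1 -/- libraries. All cells grew without feeders on gelatin in serum-free 2i medium with leukemia inhibitory factor, which contains the Mek inhibitor PD0325901 at 1 µM and the Gsk3 inhibitor CHIR99021 at 3 µM. Bmal1 is the DNA-binding partner of Clock in the circadian clock, and the comparison asks which transcripts differ when it is mutated in naive pluripotent cells. The mutant cells are 1 clonal line made with CRISPR/Cas9, with frameshift mutations in both alleles, so that a difference between clones cannot be told apart from the genotype.

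These pathways feed each other. Serine is made from a glycolytic intermediate, and the conversion of serine to glycine loads a carbon unit onto folate, which is then spent on purines, thymidylate and the remethylation of homocysteine to methionine. The methionine cycle turns methionine into S-adenosylmethionine, the donor for DNA and histone methylation. Mouse ESCs also cleave threonine in their mitochondria to glycine and acetyl-CoA, a route on which they are known to depend. Atf4 is made when amino acids are short or proteins misfold, and it switches on genes of amino acid synthesis, uptake and tRNA charging through a composite C/EBP-ATF response element.

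The promoters of the Atf4-linked members are shown first, since that element is the site through which Atf4 is known to act. RefSeq promoter sequence (build GRCm38.p6, 250 bases before and 50 bases after the annotated start) was found for 32 of the 34 members, Slc7a5 and Tdh being without an entry. It was searched on both strands for TGATGNAA, a short form of the C/EBP-ATF element. The motif was present in the promoters of 6 of the 32 members (18.8%) and of 4.51% of all 27025 genes with a promoter. Some members were chosen as known Atf4 targets, so that the higher share follows in part from that choice and is no result of these data. Each sequence below is written 5′ to 3′ on the strand of its gene with the motif in capitals, in 4 of the 6 as its reverse complement.
Asns (chr6:7693199-7693258, minus strand): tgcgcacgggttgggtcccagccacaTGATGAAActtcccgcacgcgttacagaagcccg
Pycr1 (chr11:120643818-120643877, minus strand): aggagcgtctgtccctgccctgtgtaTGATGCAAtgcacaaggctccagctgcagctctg
Slc1a4 (chr11:20332684-20332743, minus strand): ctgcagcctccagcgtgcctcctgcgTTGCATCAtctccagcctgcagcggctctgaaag
Chac1 (chr2:119351023-119351082, plus strand): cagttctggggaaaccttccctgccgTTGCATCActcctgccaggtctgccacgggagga
Trib3 (chr2:152344031-152344072, minus strand): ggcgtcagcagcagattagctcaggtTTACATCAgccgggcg
Atf3 (chr1:191183410-191183469, minus strand): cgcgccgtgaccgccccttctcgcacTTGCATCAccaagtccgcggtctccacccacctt
The members that carry the motif did not move as a block. Asns, Pycr1, Slc1a4 and Chac1 had log2 fold changes between the groups from −0.0058 to 0.06, none of which passed the test, whereas Trib3 was lower (−0.45) and Atf3 higher (0.46) in the Bmal1 -/- libraries.

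The E-box CACGTG, the site to which Clock and Bmal1 bind, was searched in the same promoters. It was present in 3 of the 32 members (9.38%) and in 8.09% of all genes with a promoter, and it does not overlap the other motif in any member. The 3 sequences are shown because Bmal1 is the mutated factor.
Gcat (chr15:79030850-79030903, plus strand): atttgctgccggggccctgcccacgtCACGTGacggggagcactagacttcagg
Tyms (chr5:30073655-30073712, minus strand): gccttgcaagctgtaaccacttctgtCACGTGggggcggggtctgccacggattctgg
Aldh18a1 (chr19:40588491-40588548, minus strand): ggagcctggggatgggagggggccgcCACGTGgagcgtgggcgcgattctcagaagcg
Gcat (−0.35) and Tyms (−0.21) were lower in the Bmal1 -/- libraries, and Aldh18a1 had a log2 fold change of −0.09 that did not pass the test. A match is a description of the sequence and not of binding.

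Reads on genes ranged from 21504265 to 23329034 per library, and 3 reads corresponded to a normalized value between 2.82 and 3.19. The targeted gene, listed as Arntl, was at 678 and 733 in wild-type and 556 and 590 in the Bmal1 -/- libraries (log2 fold change −0.30, standard error (SE) 0.07, adjusted p = 0.00113 in limma). Its mRNA was thus present in all 4 libraries and does not identify the genotype, and the libraries are called by their labels throughout. The study checked its mutant cells by other means: RT-qPCR found no Bmal1 transcript, and Western blot found no detectable Bmal1 protein. The mRNA-seq values differ from that RT-qPCR result, and the reason was not tested. The naive pluripotency markers were high in every library, with a summed normalized value of 121709 to 123632 over 10 genes in wild-type and of 131573 to 133573 in Bmal1 -/-. Of these 10 genes 5 were called higher, with Tfcp2l1 (log2 fold change 0.40) and Nanog (0.25) adding most to the sum, and 4 lower, among them Dppa3 (−0.95) and Pou5f1 (−0.13). The summed level of 5 two-cell-like markers was 146 and 167 against 1868 and 1836, with all 4 tested ones higher, and that of 8 neural markers was 4372 and 4123 against 2569 and 2388. Most of the neural difference lay in Tubb3 (mean 2649 against 1140), and 3 of the 6 neural markers tested were called, all lower, while Nes (−0.08), Olig2 (−0.16) and Neurog1 (1.15) did not pass the test. Primitive endoderm markers summed to 749 to 776 over 7 genes in wild-type and to 1096 to 1158 in Bmal1 -/-, a difference that lay mostly in the matrix genes Col4a1 (mean 145 against 396) and Lama1 (445 against 551). Of the 6 tested, 4 were called higher, among them the regulators Sox17 (1.27, mean 12.7 against 31.7) and Gata4 (0.55, mean 77.3 against 114). The regulator Sox7 was lower (−2.41), Pdgfra (−0.13) did not pass the test, and Gata6, under the filter, had a mean of 6.35 against 1.43. Fibroblast markers summed to 94.8 and 108 in wild-type and to 142 and 124 in Bmal1 -/- over 8 genes, of which 2 were at 0 in all libraries and 1 of 3 tested was called (Thy1, 0.59). The part of these shifts in the results that follow was not tested, and in bulk RNA fewer cells of a type and less RNA per cell cannot be told apart.

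Of the 34 members, 20 differed between the groups at an adjusted p-value under 0.05, 16 of them lower and 4 higher in the Bmal1 -/- libraries. The share called (58.8%) was near that of all genes tested, of which 52.6% were called, 28.6% as lower and 24.0% as higher. Among the members 47.1% were lower and 11.8% higher. Among genes with a mean of 100 or more, 19 of the 32 members that belong there were called, 16 of them lower, where 61.0% of all such genes were called and 36.8% were called lower. The count depended on the test: edgeR called 20 members (52.9% of all genes), DESeq2 called 14 (36.0% of all genes) and limma without its intensity trend called 12 (34.9% of all genes). With libraries scaled to equal totals, 16 members were called, 12 lower and 4 higher, against 51.0% of all genes called and 22.0% called lower, and the split of all genes turned from 3488 higher and 4151 lower to 4203 higher and 3193 lower. The changes were small: the called members that were lower fell by 8.58% to 28.1%, and 1 member, Gnmt, passed 2-fold, where 7.21% of all genes tested did. The median log2 fold change of the members was −0.11, beside −0.03 for all genes tested. Values did not overlap between the groups for 21 members that were lower and 6 that were higher, a pattern that 41.4% and 34.6% of all genes tested also had (76.0% in either direction). The 34 genes together took 0.721% and 0.717% of the reads on genes in wild-type and 0.676% and 0.670% in the Bmal1 -/- libraries. In what follows, a pair of values against another pair gives normalized values of the wild-type and then of the Bmal1 -/- libraries, and a signed value in parentheses is a log2 fold change of Bmal1 -/- over wild-type.

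**Figure D1:**
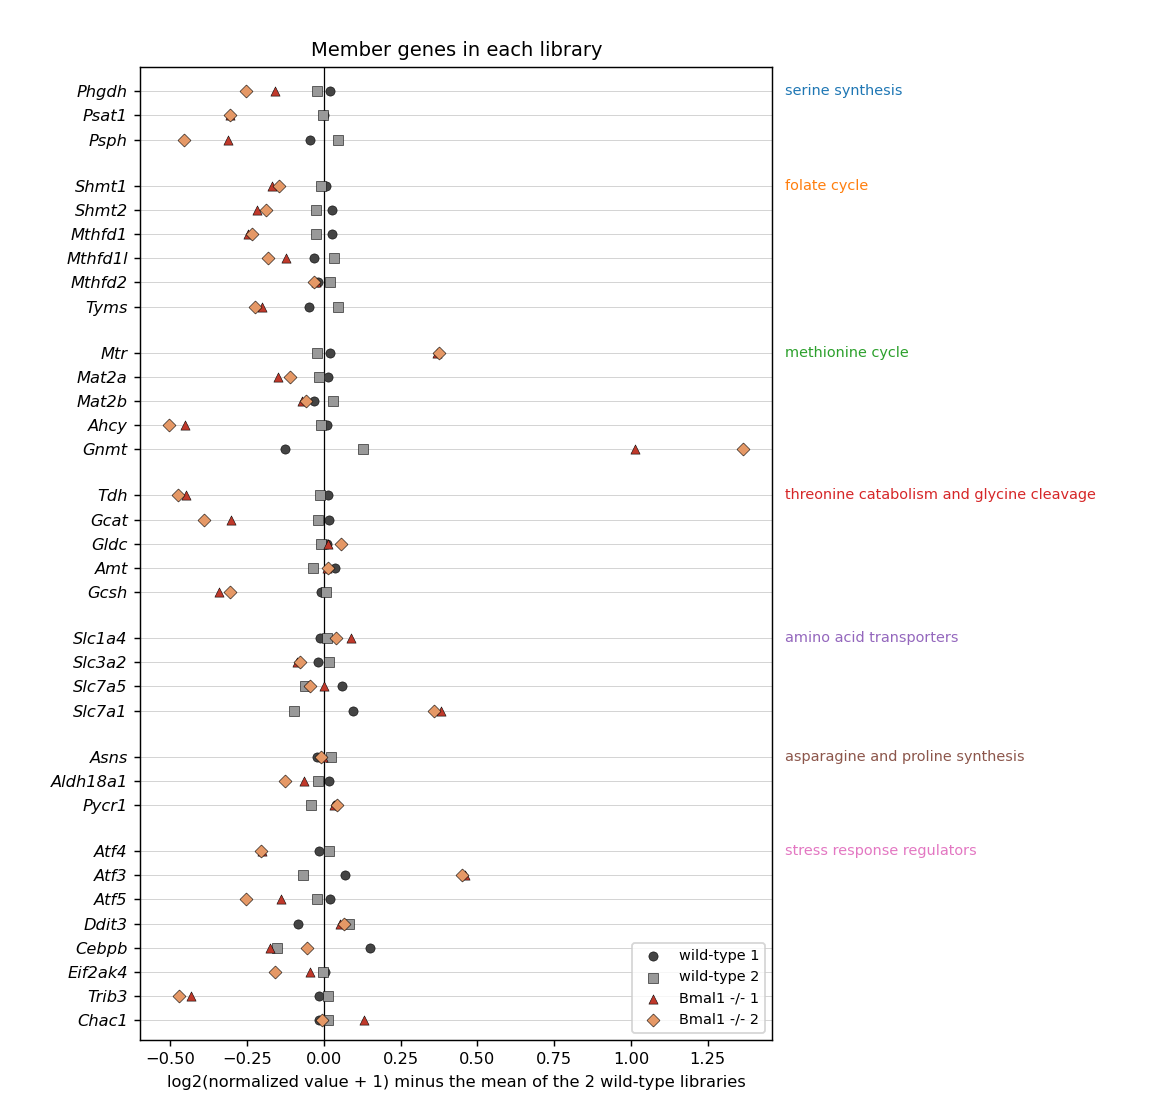
Each point is 1 library and each row 1 member gene, grouped by pathway. The horizontal axis is log2(normalized value + 1) minus the mean of the 2 wild-type libraries of that gene. The Bmal1 -/- libraries (triangles and diamonds) lie to the left of the wild-type libraries for all 3 serine synthesis genes and to the right for Mtr, Gnmt, Slc7a1 and Atf3.

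The 3 enzymes of serine synthesis were all lower in the Bmal1 -/- libraries, and none of them changed direction under another scaling. Of all genes tested 28.6% were called lower, and of those with a mean of at least 100 it was 36.8%. Phgdh, the dehydrogenase that takes 3-phosphoglycerate out of glycolysis, was at 4352 and 4229 in wild-type and 3840 and 3604 in Bmal1 -/- libraries (log2 fold change −0.21, SE 0.04, adjusted p = 0.000545 in limma). Psat1, the transaminase of the middle step, had 13635 and 13600 against 11017 and 11012, and the groups lay far apart compared with the gap between replicates (log2 fold change −0.31, SE 0.04, adjusted p = 7.71e-07 in limma). For Psph, the phosphatase that releases serine, the values were 1292 and 1377 against 1075 and 972. Its log2 fold change was −0.38 (SE 0.06, adjusted p = 2.01e-05 in limma), which leaves 76.7% of the wild-type level. The 95% intervals of the 3 fold changes overlap in part, from −0.30 to −0.11 for Phgdh, from −0.38 to −0.23 for Psat1 and from −0.51 to −0.26 for Psph, and the differences between the genes were not tested. Phgdh has processed copies elsewhere in the genome, with up to 98.8% identity, that can share its reads. The annotated copy at the most similar site, Gm7901, had a lowest value of 27.4 and differed by −0.03 on the log2 scale (adjusted p = 0.926 in limma). Without the trend in limma the call of Phgdh was lost (adjusted p = 0.072).

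In the folate cycle 5 of 6 members were lower (83.3%, beside 28.6% of all genes tested and 36.8% of those with a mean of at least 100). Mthfd1, the cytosolic enzyme that interconverts folate-bound carbon units, fell from 10081 and 9721 to 8344 and 8426 (log2 fold change −0.24, SE 0.04, adjusted p = 2.63e-05 in limma). Tyms, which makes thymidylate, had 2835 and 3026 against 2546 and 2506 (log2 fold change −0.21), and Shmt2, the mitochondrial hydroxymethyltransferase that splits serine, 7385 and 7117 against 6231 and 6358 (log2 fold change −0.20). The groups did not overlap for either gene, and the adjusted p-values were 0.000625 and 0.000212 in limma, or 0.065 and 0.056 without its trend. The cytosolic form Shmt1 (−0.16, adjusted p = 0.00385) and the mitochondrial formate-producing enzyme Mthfd1l (−0.15, adjusted p = 0.00925) were also lower in limma. These are the smallest of the 5 changes, and both lost the call in DESeq2, with equal library totals and in limma without the trend. Mthfd1l also lost it with no filter on low values, with quantile normalization, without wild-type replicate 2 (−0.12, adjusted p = 0.053 in limma) and without Bmal1 -/- replicate 2 (−0.12, adjusted p = 0.12 in limma). The exception was Mthfd2, a mitochondrial dehydrogenase of the cycle. Its normalized value was 3905 and 4014 against 3887 and 3877, a log2 fold change of −0.03 (95% interval −0.12 to 0.06, adjusted p = 0.591 in limma), and it turned to 0.03 with equal library totals and with quantile normalization. Shmt1 shares exon sequence with Smcr8 on the opposite strand, so that its reads are only its own if the counting used strand, which is not given in the sources used here. The opposite-strand neighbours of Shmt2 (Ndufa4l2) and Tyms (Gm17448) had mean values of only 8.97 and 7.84.

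Threonine catabolism showed larger falls. Tdh, the threonine dehydrogenase of the first step (chromosome 14, 64111184 to 64127929 in mm9), was at 12463 and 12244 in wild-type and 9060 and 8896 in Bmal1 -/- libraries. Its log2 fold change was −0.46 (SE 0.04, adjusted p = 3.00e-09 in limma), or 72.7% of the wild-type level. Gcat, which completes the route by releasing glycine and acetyl-CoA (chromosome 15, 78861304 to 78873988), fell from 4026 and 3924 to 3227 and 3031 (log2 fold change −0.35, SE 0.04, adjusted p = 1.89e-06 in limma). Both steps of the route were thus lower, and with any library left out Tdh stayed between −0.47 and −0.45. Per kb of exon Tdh was at percentile 98.2 of all genes tested in wild-type cells, behind Asns and Atf4 among the members. A pseudogene copy of Tdh at 96.4% identity, Gm13929, was at 10.5 to 14.9, and the opposite-strand neighbour Gm17232 had a mean of 78.0.

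The members of the glycine cleavage system, which breaks glycine down and passes its carbon to folate, did not move as a unit. Gcsh, the carrier protein of the complex, had 5479 and 5547 against 4355 and 4461, a log2 fold change of −0.32 (SE 0.04, adjusted p = 1.25e-06 in limma). Gldc, the decarboxylase, had 2757 and 2722 against 2767 and 2846, with a log2 fold change of 0.03 (95% interval −0.06 to 0.13, adjusted p = 0.534 in limma). Amt, the aminomethyltransferase, had 3151 and 3001 against 3101 and 3106, with 0.01 (95% interval −0.08 to 0.11, adjusted p = 0.823 in limma). The intervals of these 2 genes lie entirely above that of Gcsh, which ran from −0.41 to −0.24, and the difference itself was not tested. Dld, a further protein of the system that is not a member, had 2387 and 2458 against 2144 and 2326. Its log2 fold change of −0.12 (95% interval −0.22 to −0.01) did not pass the test (adjusted p = 0.0513 in limma). Gcsh has 4 copies elsewhere in the genome with more than 90% identity, and a share of its reads may be exchanged with them.

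**Figure D2:**
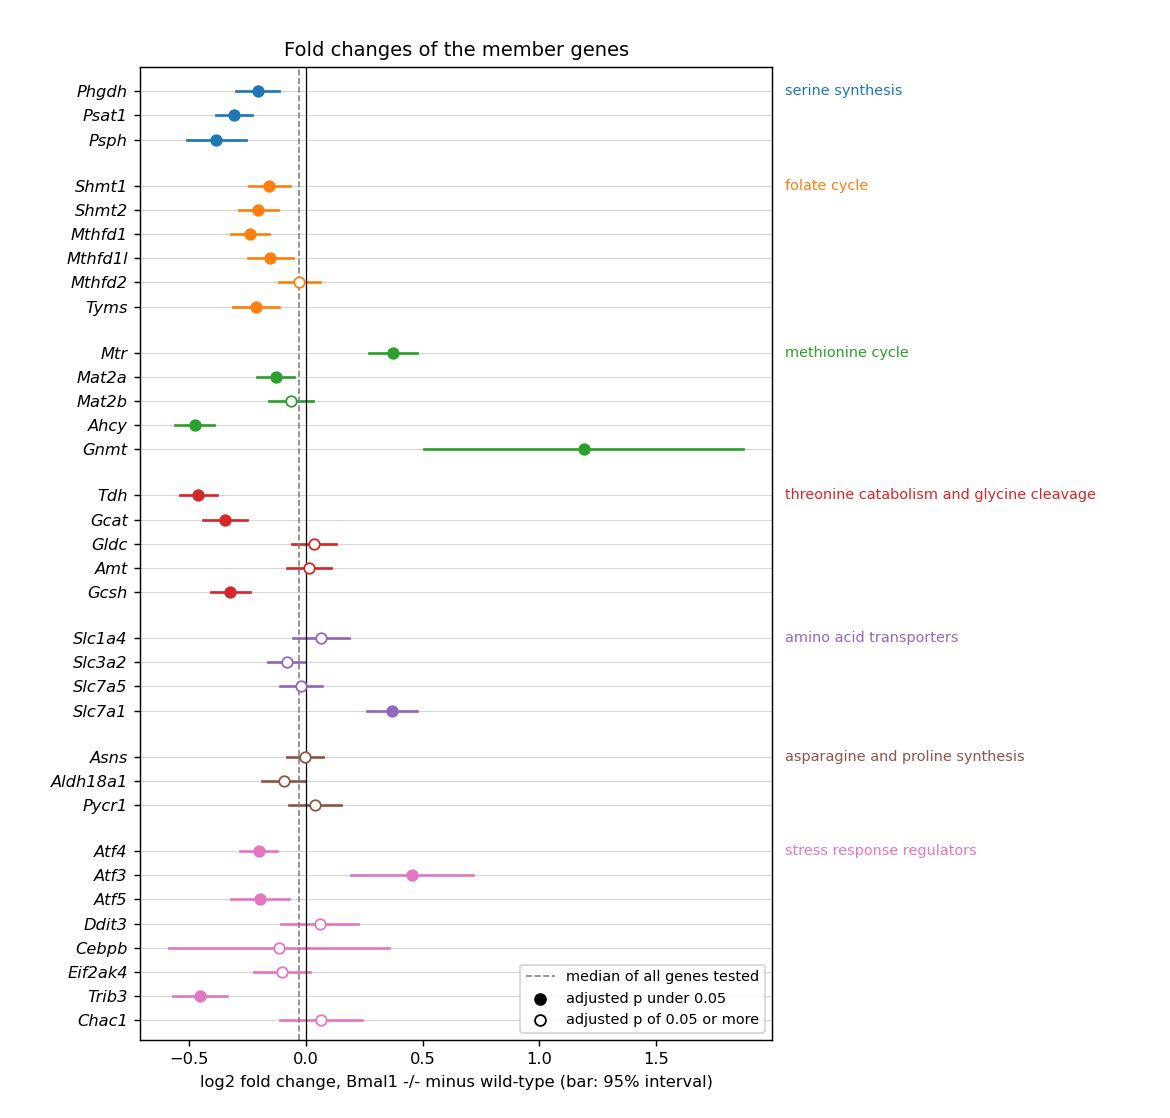
Each row is 1 member gene. The horizontal axis is the log2 fold change of Bmal1 -/- minus wild-type libraries, bars are 95% intervals from limma, filled points have an adjusted p-value under 0.05 and the dashed line is the median of all genes tested (−0.03). Tdh, Ahcy and Trib3 lie furthest to the left, at −0.46, −0.48 and −0.45, and the interval of Gnmt, from few reads, is the widest.

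The methionine cycle held members that moved in opposite directions. Ahcy, which clears S-adenosylhomocysteine and so relieves the inhibition of methyltransferases (chromosome 2, 154885046 to 154900233 in mm9), had the lowest log2 fold change of all 34 members. Its normalized value was 7490 and 7396 in wild-type and 5448 and 5250 in Bmal1 -/- libraries, a log2 fold change of −0.48 (SE 0.04, adjusted p = 4.14e-09 in limma), or 71.9% of the wild-type level. A copy of Ahcy on chromosome 16, Gm4737, is 99.7% identical over the aligned stretch and was at 52.7 and 69.0 against 49.8 and 40.1, so that reads of the pair cannot be separated with certainty. Mtr, the vitamin B12-dependent synthase that remethylates homocysteine, rose from 1455 and 1413 to 1851 and 1860 (log2 fold change 0.37, SE 0.05, adjusted p = 2.80e-06 in limma).

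Mat2a, the catalytic subunit that makes S-adenosylmethionine in most cells outside the adult liver, had 12914 and 12645 against 11533 and 11834 (log2 fold change −0.13, adjusted p = 0.00661 in limma). This was the smallest change that passed the test among the members, and it no longer passed in 5 of 16 alternatives: with equal library totals (−0.07), with quantile normalization (−0.04), in limma without the trend, in DESeq2 and without Bmal1 -/- replicate 1 (−0.11, adjusted p = 0.084 in limma). Its regulatory subunit Mat2b had a log2 fold change of −0.06 (95% interval −0.16 to 0.03, adjusted p = 0.244 in limma). Gnmt, a glycine methyltransferase best known from liver, had the fewest reads of the members. Its normalized value was 10.5 and 12.7 in wild-type and 24.4 and 31.5 in Bmal1 -/- libraries, a log2 fold change of 1.19 (SE 0.33, adjusted p = 0.00451 in limma). The call was lost in DESeq2 and without Bmal1 -/- replicate 2 (log2 fold change 1.01, adjusted p = 0.085 in limma).

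**Figure D3:**
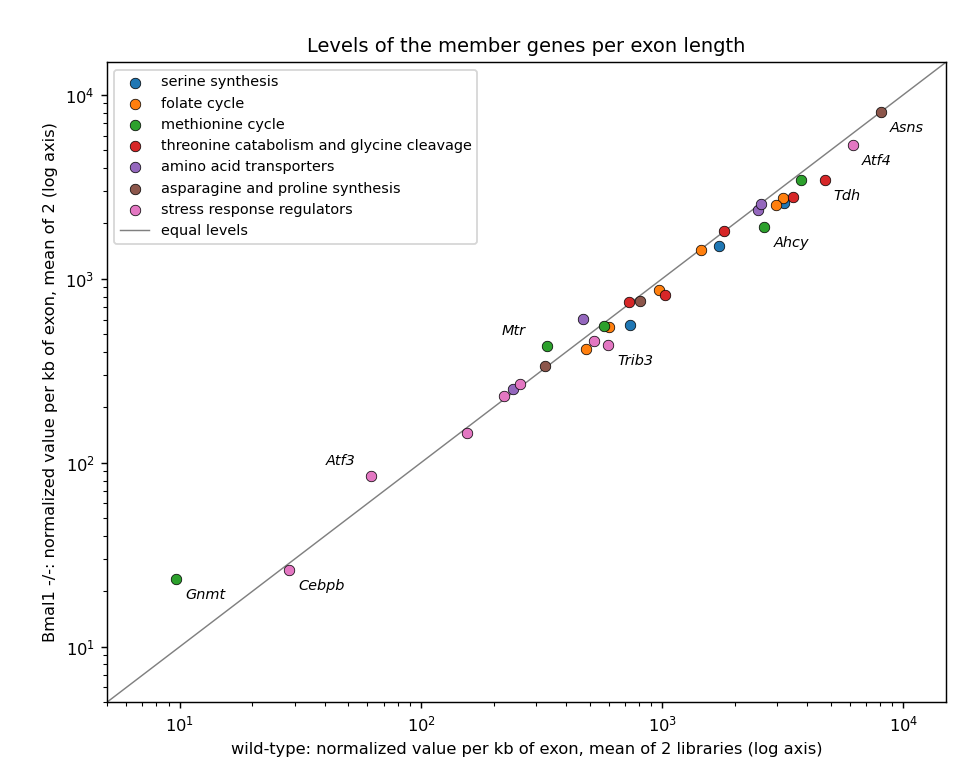
Normalized values per kb of exon, as the mean of 2 libraries, in wild-type (horizontal, log axis) and Bmal1 -/- (vertical, log axis), with 1 point per member gene and the line of equal levels. Asns and Atf4 are the most abundant members, and Gnmt lies at the low end and above the line.

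Most of the members are abundant mRNAs. Per kb of exon, 22 of the 34 were above percentile 80 of all genes tested in wild-type cells, with a median percentile of 86.1. Asns had the highest level per kb (8082), followed by Atf4 (6162) and Tdh (4724), and Cebpb (28.5) and Gnmt (9.65) had the lowest. Exon length here is the union of all annotated exons, which understates the level of genes with long minor isoforms. Besides the genes for which copies are described, Psat1, Shmt2 and Mat2a each have 1 copy elsewhere in the genome, at 90.2%, 90.2% and 95.6% identity, and 27 members have none by this search (at least 90% identity over 300 bases).

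Of the 8 regulators of the amino acid and stress response, 3 were lower and 1 higher (37.5% and 12.5%, beside 28.6% and 24.0% of all genes tested). Atf4 itself (chromosome 15, 80085614 to 80087970) was at 10500 and 10748 in wild-type and 9247 and 9221 in Bmal1 -/- libraries. The groups were separate, with a log2 fold change of −0.20 (SE 0.04, adjusted p = 0.000136 in limma), or 86.9% of the wild-type level. Without the trend in limma the adjusted p was 0.05 after rounding and the call was lost. The activity of Atf4 is set mainly by its translation, which mRNA-seq does not measure. Trib3, a pseudokinase that Atf4 induces and that feeds back on it, fell further, from 1261 and 1285 to 943 and 917 (log2 fold change −0.45, SE 0.06, adjusted p = 9.55e-07 in limma).

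Atf5, a related factor controlled in the same way, had 1056 and 1026 against 945 and 873 (log2 fold change −0.20, SE 0.06, adjusted p = 0.00933 in limma). Its exons overlap those of Nup62 on the opposite strand, and its call was lost in 6 of 16 alternatives: with equal library totals, with quantile normalization, with low genes kept in, in DESeq2, in limma without the trend and without Bmal1 -/- replicate 2 (−0.14, adjusted p = 0.16 in limma). Atf3, an immediate stress-response factor, was higher, with 129 and 117 against 169 and 168 (log2 fold change 0.46, SE 0.13, adjusted p = 0.00443 in limma). It did not keep the call in DESeq2.

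The remaining 4 regulators did not pass the test. Ddit3 (Chop), which drives cell death under lasting stress, had 417 and 468 against 458 and 462, with a log2 fold change of 0.06 (95% interval −0.11 to 0.22), and its exons overlap those of the more abundant gene Mars on the opposite strand. Chac1, which degrades glutathione, had 357 and 364 against 395 and 360 (0.06, 95% interval −0.11 to 0.24). The groups overlapped for both. Eif2ak4 (Gcn2), the kinase that senses uncharged tRNA upstream of Atf4, had a log2 fold change of −0.10 (95% interval −0.22 to 0.02). Cebpb, a partner in binding the composite element, had few reads and a wide interval, with a log2 fold change of −0.11 (95% interval −0.59 to 0.36), and its exons overlap those of Tmem189 on the opposite strand (mean value 448). The adjusted p-values of the 4 genes ran from 0.145 to 0.695 in limma.

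Asparagine and proline synthesis held 3 members, of which 0 passed the test in limma, edgeR or DESeq2. Of all genes tested 52.6%, 52.9% and 36.0% passed in these tests. In limma 1 of the 3 members had an unadjusted p-value under 0.05. Asns, the asparagine synthetase and a classical Atf4 target, had 21753 and 22458 in wild-type and 22044 and 21983 in Bmal1 -/- libraries. The groups overlapped, and the log2 fold change of −0.0058 had a 95% interval from −0.08 to 0.07 (adjusted p = 0.908 in limma). It was 0.11 with quantile normalization, with an adjusted p of 0.01 in limma. Aldh18a1, which starts proline synthesis from glutamate, had a log2 fold change of −0.09 (95% interval −0.19 to −0.0025, adjusted p = 0.0786 in limma), and Pycr1, the mitochondrial reductase of the last step, one of 0.04 (95% interval −0.07 to 0.15, adjusted p = 0.565 in limma).

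Of the 4 amino acid transporters, 1 rose (25%, beside 24.0% of all genes tested). Slc7a1, a carrier of arginine and lysine, had 3766 and 3295 in wild-type and 4595 and 4514 in Bmal1 -/- libraries, a log2 fold change of 0.37 (SE 0.05, adjusted p = 4.49e-06 in limma). The wild-type replicates stood apart from each other by more than those of most members, yet both lay below the Bmal1 -/- libraries. Slc7a5 and Slc3a2 form the heterodimer that imports leucine and other large neutral amino acids. Slc7a5 had a log2 fold change of −0.02 (95% interval −0.11 to 0.07) and Slc3a2 one of −0.08 (95% interval −0.16 to −0.0018), with adjusted p-values of 0.711 and 0.0802 in limma. Slc1a4, an exchanger of serine, alanine and threonine, had a log2 fold change of 0.06 (95% interval −0.05 to 0.18, adjusted p = 0.361 in limma).

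**Figure D4:**
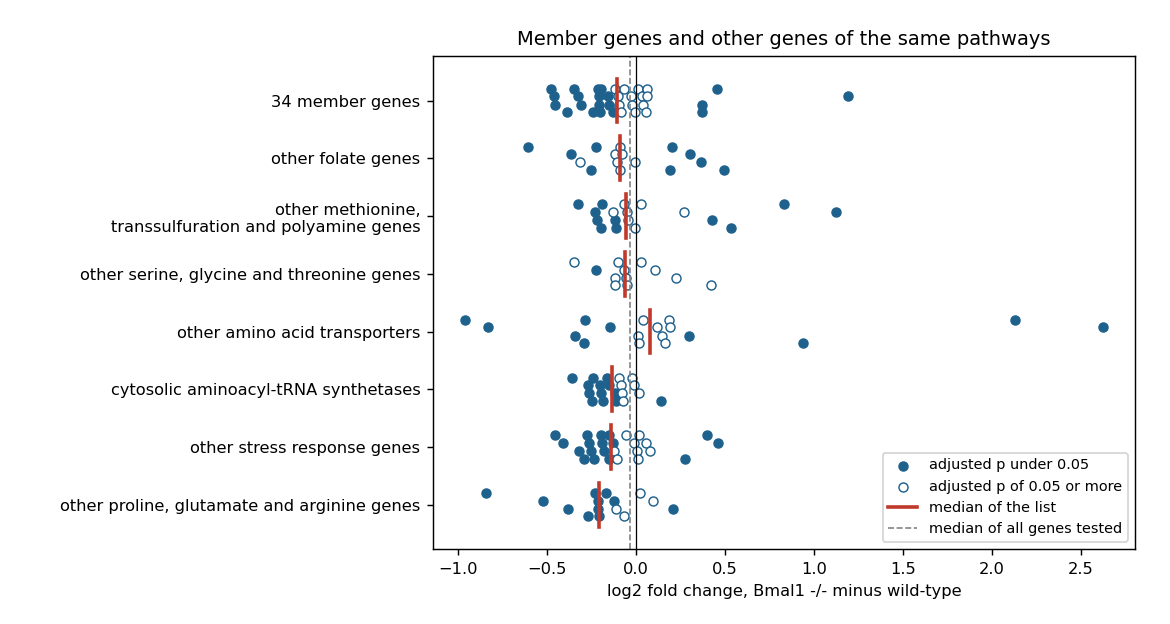
Each point is 1 gene that passed the filter, placed by its log2 fold change of Bmal1 -/- minus wild-type libraries (horizontal axis), with a row for the 34 members and for each of 7 lists of other genes of the same pathways. Filled points have an adjusted p-value under 0.05, red bars are the medians of the lists and the dashed line is the median of all genes tested. The medians run from −0.21 for proline, glutamate and arginine genes to 0.08 for amino acid transporters, and Slc1a1 and Slc7a2 lie far to the right.

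Other genes of the same pathways were examined in 7 lists of 130 genes, of which 125 were tested, 4 were under the filter and 1 was left out because its symbol has more than 1 identifier. In these lists 54 genes were lower (43.2%) and 18 higher (14.4%) at an adjusted p-value under 0.05. Of all genes tested 28.6% were lower and 24.0% higher, and 36.8% were lower among those with a mean of at least 100. In either direction the share was 57.6%, against 52.6% of all genes tested. With equal library totals the counts were 38 lower and 22 higher, where 22.0% of all genes were lower and 51.0% called in either direction. Among 16 other folate genes, 4 were lower (25%) and 5 higher (31.25%), near the 28.6% and 24.0% of all genes tested. The lowest was Atic, which completes purine synthesis with folate-bound carbon (6627 and 6259 against 4164 and 4292, log2 fold change −0.61). The highest were the folate uptake genes Slc46a1 (263 and 276 against 377 and 385, 0.50) and Folr1 (0.37). Their adjusted p-values ran from 2.57e-10 to 7.21e-05 in limma, and Atic and these 2 uptake genes thus moved in opposite directions. The folate carriers Slc19a1 (−0.09, adjusted p = 0.434 in limma) and Slc25a32 (−0.09, adjusted p = 0.395 in limma) did not pass the test.

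Of 18 other methionine, transsulfuration and polyamine genes, 7 were lower (38.9%) and 4 higher (22.2%), beside 28.6% and 24.0% of all genes tested. Pemt, which uses S-adenosylmethionine to make phosphatidylcholine, rose from 125 and 115 to 283 and 243 (log2 fold change 1.12, SE 0.12, adjusted p = 1.37e-07 in limma). Bhmt2, a second enzyme that remethylates homocysteine, had 27.4 and 28.7 against 41.3 and 62.0 (0.83, adjusted p = 0.00746 in limma). Srm, the spermidine synthase, had the lowest value of the list (−0.32, adjusted p = 1.84e-06 in limma), followed by Adi1 of the methionine salvage pathway (−0.23, adjusted p = 0.00143). Of 12 other serine, glycine and threonine genes only Sfxn3, a mitochondrial serine carrier, passed the test (−0.22, adjusted p = 0.0137 in limma), and it did not in DESeq2. That is 8.33% of the list, where 52.6% of all genes tested were called.

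The other amino acid transporters held the largest changes of any list, with 6 lower and 4 higher among 18 genes. These shares (33.3% and 22.2%) were near the 28.6% and 24.0% of all genes tested. Slc1a1, a high-affinity carrier of glutamate, aspartate and cysteine, had 178 and 174 in wild-type and 1015 and 1170 in Bmal1 -/- libraries (log2 fold change 2.62, SE 0.08, adjusted p = 8.39e-16 in limma). Slc7a2, a cationic amino acid carrier of the same family as Slc7a1, rose from 36.9 and 44.6 to 179 and 182 (2.13, adjusted p = 9.97e-10 in limma). The groups of both genes were several-fold apart. In the opposite direction, Slc7a7, a light chain that pairs with Slc3a2, fell from 541 and 530 to 274 and 276 (−0.96, adjusted p = 4.31e-09 in limma). Slc7a11, the cystine importer and an Atf4 target, fell from 87.4 and 81.8 to 51.7 and 42.9 (−0.83, adjusted p = 0.000787 in limma). Slc7a3, a cationic amino acid carrier like Slc7a1 and Slc7a2, was also lower, unlike those genes. It had 4601 and 4418 against 3469 and 3662 (−0.34, adjusted p = 1.95e-06 in limma).

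The cytosolic aminoacyl-tRNA synthetases, many of them Atf4 targets, had 12 lower and 1 higher among 20 genes, with changes between −0.36 and 0.14 and a median of −0.13. Farsa (−0.36) and Sars (−0.27), which charge the tRNAs of phenylalanine and serine, were lowest, and Iars (0.14), for isoleucine (adjusted p = 0.00346 in limma), was the one that rose. The next highest of those called was Gars, for glycine (−0.11, adjusted p = 0.0217 in limma). In this list 60% were lower, against 28.6% of all genes tested and 36.8% of those with a mean of at least 100. The list was chosen with earlier results of these data known, so that this contrast is a description only. Of its genes edgeR called 11 and DESeq2 9, in either direction. Of 26 other stress response genes 14 were lower (53.8%) and 3 higher (11.5%, against 24.0% of all genes tested), with a median of −0.14. The lowest were Nupr1, a stress-induced chromatin protein (1262 and 1377 against 971 and 956, −0.45), and Stc2 (−0.41), and the highest were Ppp1r15b, the constitutive subunit that directs dephosphorylation of eIF2α (2844 and 2695 against 3727 and 3887, 0.46), and Vldlr (0.40). The adjusted p-values of these 4 genes were 1.75e-06, 0.000356, 4.97e-08 and 0.00234 in limma.

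Of 15 other proline, glutamate and arginine genes 10 were lower (66.7%) and 1 higher (6.67%), with a median of −0.21. Of all genes tested 28.6% were lower and 24.0% higher, and 36.8% were lower among those with a mean of at least 100. Bcat2, the mitochondrial branched-chain aminotransferase, had 3816 and 3654 against 2631 and 2572 (−0.52, adjusted p = 5.33e-09 in limma), and its cytosolic counterpart Bcat1 had 14665 and 14368 against 16744 and 16810 (0.21, adjusted p = 7.41e-05 in limma). Got1, the cytosolic aspartate aminotransferase, had the next highest value of those called (−0.12, adjusted p = 0.0209 in limma). The 2 Bcat forms thus moved in opposite directions, each beyond the spread between its replicates.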

How the data were processed

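Per the labels and the study's methods, total RNA from 2 biological replicates of each line was made into stranded mRNA libraries and read as 75-bp pairs. The authors processed the reads with bcl2fastq 2.18.0.12 and cutadapt 1.9.1 and aligned them to mm9 with STAR 2.5.2b. The counting tool and its use of strand are not given in the sources used here. The deposited values are a normalized signal, that is, reads per gene scaled by a single factor for each library (trimmed mean of M values, TMM), with no correction for gene length. All values (100%) were whole multiples of 1 read within 0.01 of a read, so that whole reads were recovered. Gnmt and Cebpb have the fewest reads of the members and the widest intervals.

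The test was limma 3.58.1 (R 4.3.3) on log2(value + 1), with an intensity trend and no covariate for the genes averaging 10 or more, 2 libraries against 2, 2-sided, with Benjamini-Hochberg adjustment over all 14510 genes. A gene was called at an adjusted p-value under 0.05. Fold changes are on the log2(value + 1) scale, which understates changes of low values. edgeR 4.0.16 and DESeq2 1.42.0 on the recovered reads, other filters, pseudocounts and scalings, a replicate block and each library left out were the alternatives. The scripts were tested on simulated data. The labels number the libraries of each line as Exp 1 and Exp 2. Whether same-numbered libraries shared a day or batch is not stated, and no batch is given.

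Gene names, positions and exon lengths came from the GENCODE annotation of NCBIM37 (mm9) for all 37310 identifiers. Copies were sought by aligning member transcripts to that genome with minimap2 2.31 (at least 90% identity over 300 bases), which found copies for 7 members. Promoters are from RefSeq.

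The members and lists were chosen with earlier results of these data known. By the rule, all members are named, and for each other list the 2 highest and 2 lowest called genes. Slc7a3, Slc19a1, Slc25a32 and Dld are named besides these. Some genes that the rule selects are not reported here. Full statistics were set for Atf4 and for called members past 0.5 on the log2 scale; other library values were added after they were seen. Gene lists are hand-written, and in the marker lists symbols with several identifiers or none were left out.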

Additional observations from a re-analysis of the deposited data

How the results depend on the processing

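Of the 20 called members, 10 kept direction and call in each of the 16 alternatives in which they were tested (Psat1, Psph, Mthfd1, Mtr, Ahcy, Tdh, Gcat, Gcsh, Slc7a1 and Trib3), and none of the 20 changed sign in any. limma without the trend reduced the called members to 12, all in the direction given (8 lower), and the called pathway genes to 40 (28 lower). DESeq2 called 14 members, 2 of them higher, and edgeR 20. With 1 library left out, the member median stayed between −0.12 and −0.10. The median was −0.093 with median-ratio size factors, −0.0883 in edgeR, −0.0813 in DESeq2, −0.0634 with quantile normalization and −0.0484 with equal library totals, each further from −0.11 than the spread between libraries (0.011). In the same order, the medians of all genes tested were −0.0153, −0.0063, 0.00056, −0.0549 and 0.0296. The members thus lay closest to all genes with quantile normalization. Bmal1 itself lay between −0.35 and −0.24 in every alternative. The cause of these shifts was not tested.

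Members near 0 changed sign without passing the test, apart from Asns with quantile normalization. Mthfd2 was 0.032 with equal totals, 0.031 with quantile normalization and 0.0027 in DESeq2. Slc7a5 was 0.040 with equal totals, 0.0025 in edgeR and 0.0093 in DESeq2, and ran from −0.0818 to 0.0404 with 1 library left out. Asns was 0.0094 with median-ratio size factors, 0.054 with equal totals, 0.106 with quantile normalization, 0.018 in edgeR and 0.025 in DESeq2. With 1 library left out, the values ran from −0.0288 to 0.0171 for Asns, from −0.0219 to 0.0484 for Amt, from −0.0012 to 0.0792 for Pycr1, from −0.0248 to 0.1421 for Ddit3, from −0.2661 to 0.0367 for Cebpb and from −0.0049 to 0.1324 for Chac1. The replicate block called 20 members (16 lower) and 76 pathway genes, where 54.8% of all genes tested were called. Deviations of same-numbered libraries did not go together (correlation −0.02 across genes), so that the numbers are not taken as pairs.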
